A study of Zea mays with 18 samples.

Results

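The 2 nitrate reductase genes Zm00001d049995 and Zm00001d018206 and the 2 ferredoxin-nitrite reductase genes Zm00001d018161 and Zm00001d052164 were followed in maize roots. They were chosen by identifier, as 4 of the 41632 genes in the deposited count and FPKM tables, and their family names came with the choice, since the tables hold identifiers without names, coordinates or sequences. Nitrate reductase is a cytosolic enzyme that uses NADH or NADPH to turn nitrate into nitrite. Nitrite reductase then turns nitrite into ammonium inside the plastid, with electrons from ferredoxin, before ammonium is built into glutamine. Genes of both families are classical nitrate-inducible genes in plants, and in the root they stand at the entry of nitrate into organic nitrogen.

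RNA was taken from roots of 10-day-old seedlings after 48 h on nutrient solution with 0.15 mM (low) or 15 mM (high) nitrate, and the study asked how ZmNRL1 bears on the response to nitrogen stress. The 6 groups were zmnrl1-m at low and at high nitrate, ZmNRL1-OE at low and at high nitrate, and B73 at low and at high nitrate, with 3 libraries each. The labels call zmnrl1-m a mutant, ZmNRL1-OE an overexpression line, and B73, an inbred line, carries neither change. The sources used here do not give the promoter of the overexpression construct, the kind of mutation, the number of lines or the number of plants per library. The genetic background of zmnrl1-m and ZmNRL1-OE was not analysed here, and its part in differences from B73 was not tested. Total counts lay between 21905877 and 39003607 per library, and the 4 genes together took 0.0121% to 0.113% of them. The expression of ZmNRL1 itself and of tissue markers was not analysed here, because no identifier was paired with a name, so the genotype and root labels stand as given. No label states separate plantings for the 3 libraries of a group, so the p-values speak of the spread between these libraries only, and part of it may be technical.

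Levels are given as FPKM, reads divided by the authors by gene length and library total, which allows genes to be set side by side. Over all 18 libraries Zm00001d018161 averaged 115 FPKM and ranked 756 among the 41632 genes, Zm00001d049995 averaged 82.3 FPKM and ranked 1155, and Zm00001d018206 averaged 79.4 FPKM and ranked 1223. Zm00001d052164 averaged 4.77 FPKM and ranked 16463. The nitrite reductase pair thus held an abundant and a sparse gene, while the nitrate reductase genes had like levels.

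The nitrate reductase gene Zm00001d049995 had 24.0, 30.3 and 23.1 FPKM in zmnrl1-m at low nitrate, against 77.5, 121 and 87.9 FPKM in zmnrl1-m at high nitrate. In ZmNRL1-OE it had 114, 70.8 and 106 FPKM at low nitrate, against 149, 98.6 and 126 FPKM at high nitrate. In B73 it had 37.8, 49.3 and 55.2 FPKM at low nitrate, against 121, 93.2 and 95.3 FPKM at high nitrate. The low-nitrate libraries lay below all high-nitrate libraries in zmnrl1-m and in B73, while the ranges of ZmNRL1-OE overlapped. In the order of group means, the 3 high-nitrate groups and ZmNRL1-OE at low nitrate came first, each overlapping with its neighbour, and B73 at low nitrate and zmnrl1-m at low nitrate followed without overlap.

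The nitrate reductase gene Zm00001d018206 had 24.1, 30.3 and 21.8 FPKM in zmnrl1-m at low nitrate, against 116, 177 and 143 FPKM in zmnrl1-m at high nitrate. In ZmNRL1-OE it had 44.2, 38.9 and 48.8 FPKM at low nitrate, against 131, 90.5 and 115 FPKM at high nitrate. In B73 it had 28.0, 38.1 and 39.1 FPKM at low nitrate, against 146, 98.8 and 98.5 FPKM at high nitrate. The 9 low-nitrate libraries all lay below the 9 high-nitrate libraries. Within each nitrate level the neighbouring genotypes overlapped, with zmnrl1-m highest by mean at high nitrate and lowest by mean at low nitrate.

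The abundant nitrite reductase gene Zm00001d018161 had 15.5, 16.3 and 12.2 FPKM in zmnrl1-m at low nitrate, against 124, 170 and 141 FPKM in zmnrl1-m at high nitrate. In ZmNRL1-OE it had 81.9, 49.8 and 81.8 FPKM at low nitrate, against 230, 187 and 222 FPKM at high nitrate. In B73 it had 25.8, 46.1 and 42.2 FPKM at low nitrate, against 226, 185 and 208 FPKM at high nitrate. In the order of its group means, ZmNRL1-OE and B73 at high nitrate overlapped, and every further step down, to zmnrl1-m at high nitrate and then to ZmNRL1-OE, B73 and zmnrl1-m at low nitrate, was without overlap.

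The sparse nitrite reductase gene Zm00001d052164 had 0.124, 0.269 and 0.0448 FPKM in zmnrl1-m at low nitrate, from 10, 23 and 4 counts, against 1.56, 2.05 and 1.43 FPKM in zmnrl1-m at high nitrate. In ZmNRL1-OE it had 4.13, 3.16 and 4.40 FPKM at low nitrate, against 10.4, 13.4 and 13.0 FPKM at high nitrate. In B73 it had 1.21, 1.28 and 1.20 FPKM at low nitrate, against 9.71, 8.42 and 10.0 FPKM at high nitrate. No neighbouring groups overlapped, in the order of ZmNRL1-OE and B73 at high nitrate, ZmNRL1-OE at low nitrate, zmnrl1-m at high nitrate, B73 at low nitrate and zmnrl1-m at low nitrate. Its highest library had 300-fold the FPKM of its lowest, against 18.8-fold for Zm00001d018161, 8.14-fold for Zm00001d018206 and 6.44-fold for Zm00001d049995.

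**Figure D1:**
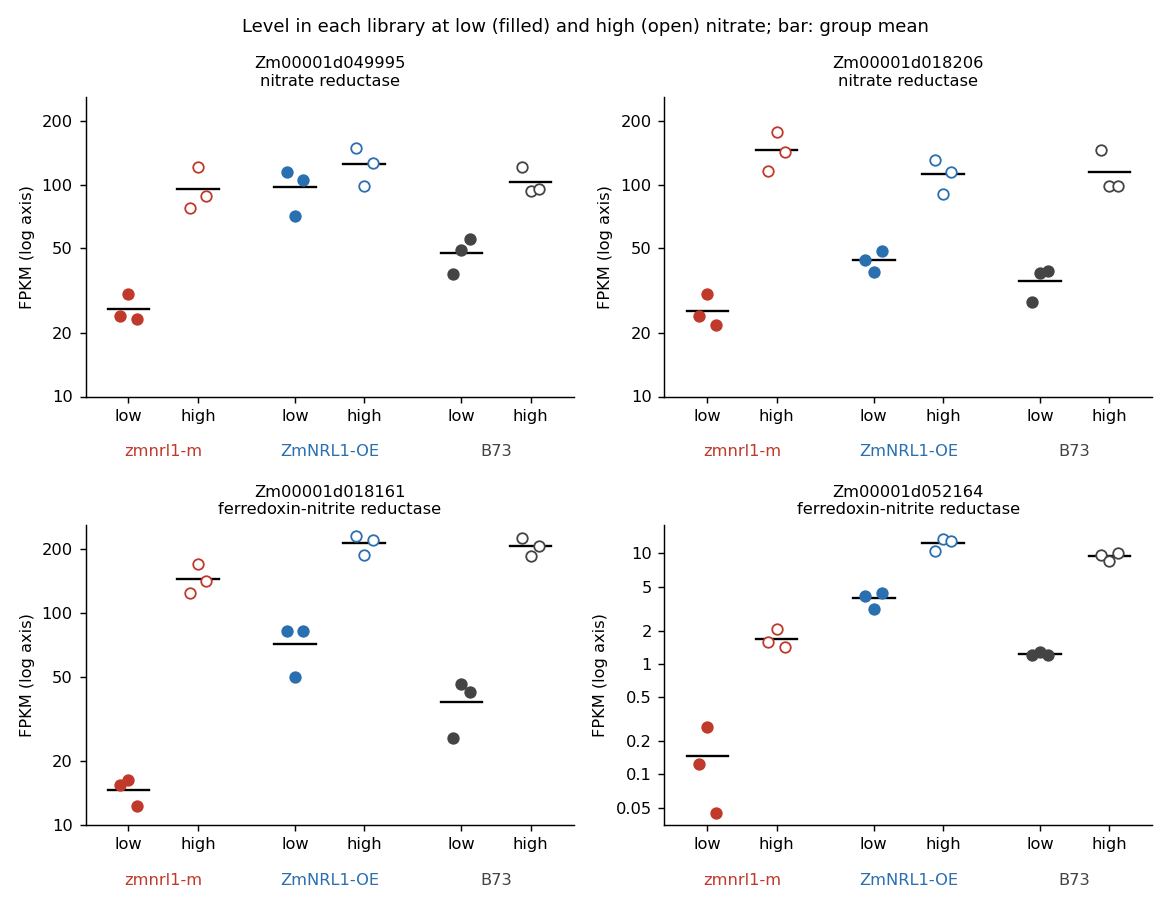
FPKM on a log axis of the 4 genes in each library, with the genotypes zmnrl1-m, ZmNRL1-OE and B73 from left to right, low nitrate as filled and high nitrate as open points, and bars at the mean of 3 libraries. At low nitrate the means ran from zmnrl1-m, the lowest, over B73 to ZmNRL1-OE, the highest, in all 4 genes, and in Zm00001d052164 zmnrl1-m was far below the other genotypes at high nitrate too (1.68 FPKM against 12.3 FPKM in ZmNRL1-OE and 9.39 FPKM in B73).

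Genes of both enzymes had less RNA at low than at high nitrate in every genotype. The edgeR estimates of this change were larger for the nitrite reductase genes than for the nitrate reductase genes in each genotype. Genes were not tested against each other. On log2(FPKM + 1), where levels under 1 FPKM are compressed, the log2 fold change of Zm00001d052164 in zmnrl1-m was -1.22. There the nitrate reductase genes Zm00001d049995 and Zm00001d018206 had -1.83 and -2.46. The tests compared raw counts with edgeR, with Benjamini-Hochberg adjustment over 27134 genes. A gene is said to rise or fall at low nitrate, relative to high nitrate, when its adjusted p was under 0.05. The same threshold was used in every comparison. The series holds no library from before the treatment, so whether low nitrate lowered the RNA or high nitrate raised it cannot be told. In these bulk samples fewer cells that express a gene and less of its RNA per cell cannot be told apart. All 4 genes fell in zmnrl1-m, where 8.97% of all tested genes fell, and all 4 fell in B73, where 5.49% did. In ZmNRL1-OE 3 of the 4 fell, where 13.1% of tested genes fell and 10.8% rose (9.47% and 12.6% when libraries were scaled by their totals alone). The 4 genes had a median log2 fold change of -2.91 in zmnrl1-m, -1.51 in ZmNRL1-OE and -2.09 in B73, against medians over all tested genes of 0.00027, -0.012 and 0 in that order of genotypes.

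Zm00001d049995, of the nitrate reductase pair, kept 27.0% of its high-nitrate mean FPKM at low nitrate in zmnrl1-m, 77.8% in ZmNRL1-OE and 45.9% in B73. Its log2 fold change, low over high nitrate, was -1.89 ± 0.22 in zmnrl1-m (edgeR adjusted p = 2.13e-05) and -1.14 ± 0.22 in B73 (edgeR adjusted p = 0.00226; errors of log2 fold changes are SE throughout). In ZmNRL1-OE it was -0.41 ± 0.21 (edgeR adjusted p = 0.178), and this did not pass the test with any 1 of its libraries left out or under any other setting tried. The other gene of the pair, Zm00001d018206, kept 17.5%, 39.3% and 30.6% of its high-nitrate mean in zmnrl1-m, ZmNRL1-OE and B73. Its log2 fold changes were -2.52 ± 0.21, -1.40 ± 0.20 and -1.72 ± 0.20 in the same order (edgeR adjusted p = 6.48e-07, 0.000154 and 3.54e-05). The fall in nitrate reductase RNA was thus found for both genes in zmnrl1-m and B73 and for Zm00001d018206 in ZmNRL1-OE.

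Zm00001d018161, which carries most nitrite reductase RNA, kept 10.1% of its high-nitrate mean FPKM at low nitrate in zmnrl1-m, 33.4% in ZmNRL1-OE and 18.4% in B73. Its log2 fold change was -3.30 ± 0.24 in zmnrl1-m, -1.62 ± 0.22 in ZmNRL1-OE and -2.45 ± 0.23 in B73 (edgeR adjusted p = 1.50e-07, 9.30e-05 and 3.77e-06). Ranked by log2 fold change from the most lowered of 27134 genes, it stood at place 66 in zmnrl1-m, 280 in ZmNRL1-OE and 122 in B73. The sparse Zm00001d052164 kept 8.69%, 31.8% and 13.1% of its high-nitrate mean in the same genotypes. Its log2 fold change was -3.53 ± 0.31 in zmnrl1-m, -1.69 ± 0.21 in ZmNRL1-OE and -2.94 ± 0.23 in B73 (edgeR adjusted p = 1.51e-06, 4.22e-05 and 7.24e-07), at places 52, 260 and 58. In zmnrl1-m this gene had 37 counts over the 3 low-nitrate libraries, 23 of them in replicate 2, and the size of its fall varied with the libraries used. Dropping replicate 1, 2 or 3 of that group gave -3.44, -4.31 and -3.10 in that order, and the fall passed the test each time.

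**Figure D2:**
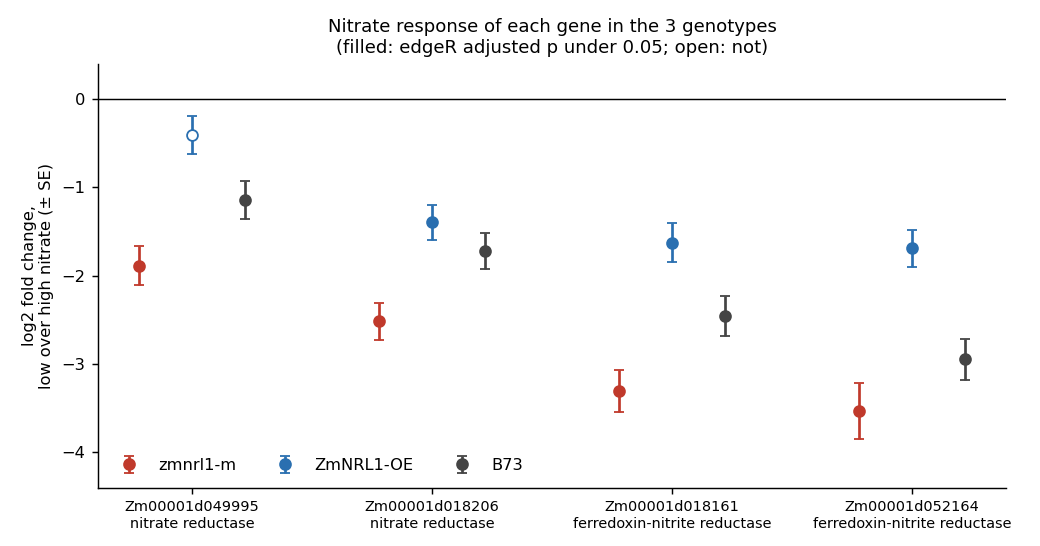
Log2 fold change of each gene, low over high nitrate, with its SE, in zmnrl1-m, ZmNRL1-OE and B73, from the edgeR model over 18 libraries. Every point but that of Zm00001d049995 in ZmNRL1-OE (-0.41) is filled, for an adjusted p under 0.05, and in each gene the lowest point is zmnrl1-m and the highest is ZmNRL1-OE.

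**Figure D3:**
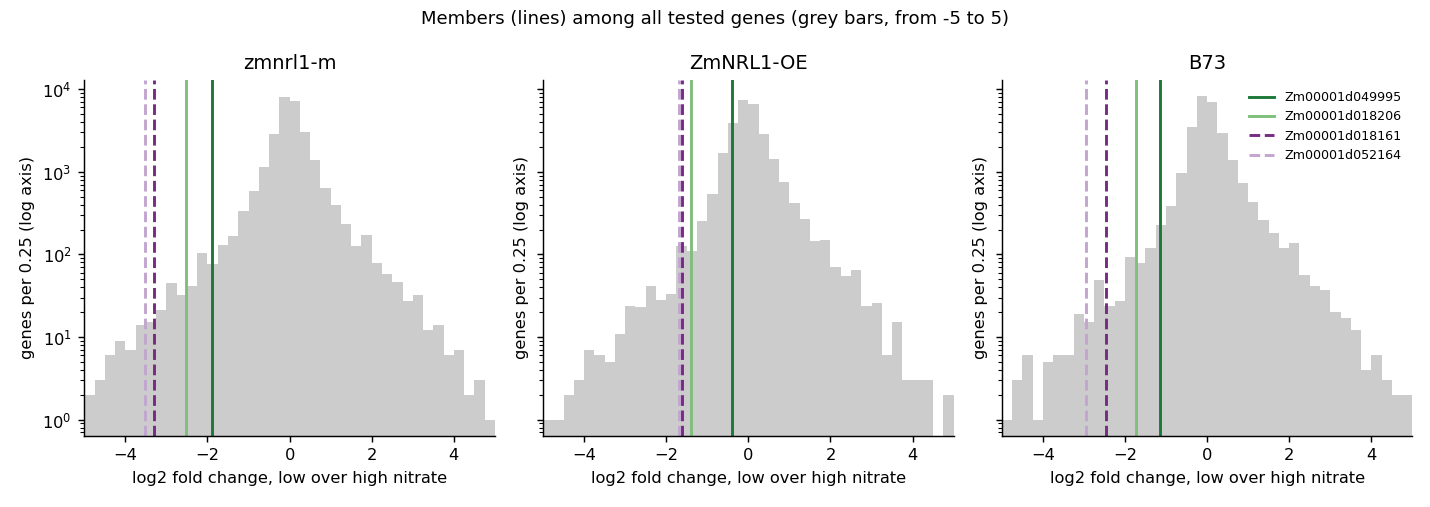
Number of tested genes, on a log axis, by log2 fold change, low over high nitrate, in zmnrl1-m, ZmNRL1-OE and B73, with lines at the 4 members (solid for nitrate reductase, dashed for nitrite reductase). The lines lie on the left of the distribution in each genotype, and that of Zm00001d049995 in ZmNRL1-OE is nearest to the centre, with 15.0% of tested genes at or below it.

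Whether the size of the nitrate response differed between genotypes was tested with an interaction term, which takes the log2 fold change of 1 genotype from that of another. In all 4 genes the log2 fold change, low over high nitrate, was less negative in ZmNRL1-OE than in zmnrl1-m, and the difference passed the test. The log2 response in ZmNRL1-OE minus that in zmnrl1-m was 1.48 ± 0.30 for Zm00001d049995, 1.12 ± 0.28 for Zm00001d018206, 1.68 ± 0.31 for Zm00001d018161 and 1.84 ± 0.39 for Zm00001d052164 (edgeR adjusted p = 0.00890, 0.0167, 0.00623 and 0.00955). Of all tested genes, 6.75% had a called difference in that direction and 9.70% in the other (7.96% and 7.10% when libraries were scaled by their totals alone). The call for Zm00001d018206 was lost when low-nitrate replicate 3 of zmnrl1-m was left out (1.03, edgeR adjusted p = 0.0501) and when high-nitrate replicate 2 of zmnrl1-m was left out (0.95, edgeR adjusted p = 0.0517). For Zm00001d052164 the difference ranged from 1.41 to 2.62 with 1 library left out, the highest without low-nitrate replicate 2 of zmnrl1-m. On the scale of log2(FPKM + 1), where levels under 1 FPKM are compressed, it turned to -0.21 and lost its call (limma adjusted p = 0.404).

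Against B73 the response of neither line passed the test for any of the 4 genes in edgeR, although the estimates had 1 sign in each line. The log2 response in zmnrl1-m minus that in B73 was -0.75 ± 0.30 for Zm00001d049995, -0.80 ± 0.28 for Zm00001d018206, -0.85 ± 0.31 for Zm00001d018161 and -0.59 ± 0.40 for Zm00001d052164 (edgeR adjusted p = 0.116, 0.0764, 0.0826 and 0.354), while 8.93% of tested genes were called. The unadjusted p was under 0.05 in 3 of these 4 genes, a threshold at which the share of all tested genes was not counted. DESeq2 called Zm00001d018206 and Zm00001d018161 (adjusted p = 0.0335 and 0.0385). Of all tested genes it called 8.61% in that negative direction and 6.69% in the other. With 1 library left out, the estimate for Zm00001d052164 ranged from -1.37, without low-nitrate replicate 2 of zmnrl1-m, to -0.15. From log2(FPKM + 1) it turned to 0.99 and passed in that opposite direction (limma adjusted p = 0.00682). The log2 response in ZmNRL1-OE minus that in B73 was 0.73 ± 0.30 for Zm00001d049995, 0.32 ± 0.28 for Zm00001d018206, 0.83 ± 0.30 for Zm00001d018161 and 1.25 ± 0.30 for Zm00001d052164 (edgeR adjusted p = 0.759, 0.954, 0.663 and 0.246), while 0.0479% of tested genes were called. The unadjusted p was again under 0.05 in 3 of the 4 genes, with the share of all tested genes not counted. DESeq2 called Zm00001d052164 (adjusted p = 0.00122), and of all tested genes 0.206% in that positive direction and 0.177% in the other. These comparisons share the B73 libraries, so their values are not independent of each other.

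At low nitrate the lines lay on opposite sides of B73. In zmnrl1-m 3 of the 4 genes were lower than in B73, where 22.8% of all tested genes were lower, and in ZmNRL1-OE the same 3 were higher than in B73, where 16.1% were higher and 18.7% lower (20.1% and 13.5% when libraries were scaled by their totals alone). The B73 libraries are shared by these comparisons, and a large part of all genes differed between genotypes. Zm00001d052164 differed most, by a log2 fold change of -3.05 ± 0.32 in zmnrl1-m and 1.58 ± 0.23 in ZmNRL1-OE against B73 (edgeR adjusted p = 1.05e-06 and 5.30e-05). Zm00001d018161 differed by -1.35 ± 0.22 in zmnrl1-m and 0.82 ± 0.22 in ZmNRL1-OE (edgeR adjusted p = 0.000114 and 0.00754), and Zm00001d049995 by -0.85 ± 0.22 and 0.95 ± 0.22 (edgeR adjusted p = 0.00437 and 0.00266). For the nitrate reductase gene Zm00001d018206 the values were -0.44 ± 0.20 and 0.24 ± 0.20, and neither passed the test (edgeR adjusted p = 0.0825 and 0.374), although that in zmnrl1-m passed when low-nitrate replicate 1 of B73 was left out (-0.59, edgeR adjusted p = 0.0318). With 1 library left out, the value of Zm00001d052164 in zmnrl1-m ranged from -3.83, without low-nitrate replicate 2 of that line, to -2.61.

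At high nitrate a single difference from B73 was found among the 4 genes. Zm00001d052164 was lower in zmnrl1-m by a log2 fold change of -2.46 ± 0.22 (edgeR adjusted p = 1.63e-07), where 20.8% of all tested genes were lower and 21.6% higher. The part of genetic background or read mapping in this difference was not tested. The other nitrite reductase gene, Zm00001d018161, had -0.50 ± 0.21 in zmnrl1-m (edgeR adjusted p = 0.0722), a difference that passed when only the groups compared were fitted (-0.49, edgeR adjusted p = 0.0199). The nitrate reductase genes had -0.10 ± 0.21 for Zm00001d049995 and 0.36 ± 0.19 for Zm00001d018206 in zmnrl1-m (edgeR adjusted p = 0.740 and 0.153), and Zm00001d018206 passed only without high-nitrate replicate 1 of B73 (0.56, edgeR adjusted p = 0.0403). In ZmNRL1-OE none of the 4 genes passed, while 27.2% of all tested genes did. There the log2 fold changes against B73 were 0.22 ± 0.21 for Zm00001d049995, -0.085 ± 0.19 for Zm00001d018206 and 0.33 ± 0.20 for Zm00001d052164, with that of Zm00001d018161 at -0.0076 ± 0.21, a sign that turned with the scaling (edgeR adjusted p = 0.497, 0.801, 0.254 and 0.991). By unadjusted p under 0.05 the count was also 0 of 4, with the share of all tested genes not counted. DESeq2 called 0 of 4, and limma on log2(FPKM + 1) called Zm00001d052164 (0.35, adjusted p = 0.0476). Of all tested genes DESeq2 called 15.9% higher and 13.2% lower, and that limma fit 16.7% higher and 9.89% lower.

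**Figure D4:**
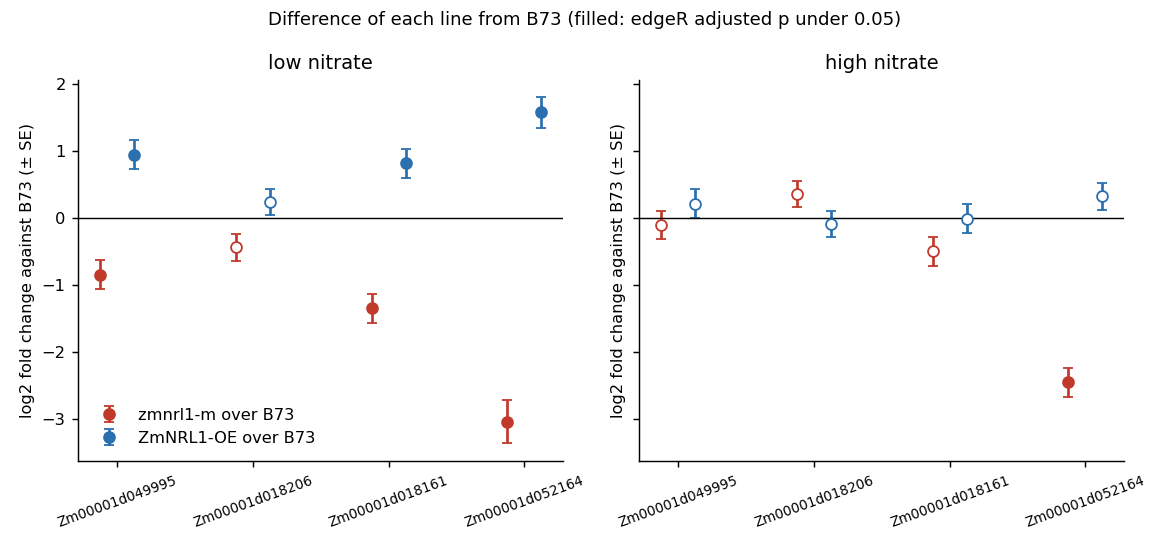
Log2 fold change of zmnrl1-m and ZmNRL1-OE over B73, with SE, for the 4 genes at low and at high nitrate, filled where the edgeR adjusted p was under 0.05. At low nitrate every zmnrl1-m point lies below 0 and every ZmNRL1-OE point above it, and at high nitrate the single filled point is Zm00001d052164 in zmnrl1-m (-2.46).

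The balance within and between the pairs was described per library from FPKM, without a test, since it combines chosen genes. The part of Zm00001d049995 in the summed FPKM of the nitrate reductase pair was 50.5% ± 0.893 at low nitrate against 39.6% ± 1.37 at high nitrate in zmnrl1-m (SD, n = 3). It was 68.4% ± 3.79 against 52.6% ± 0.613 in ZmNRL1-OE, and 57.5% ± 1.1 against 47.7% ± 2.04 in B73. The low-nitrate libraries lay above the high-nitrate libraries in every genotype, so the pair leaned towards Zm00001d049995 at low nitrate. From counts, which are not corrected for length, its part was 52.2% against 41.2% in zmnrl1-m, 69.8% against 54.3% in ZmNRL1-OE, and 59.1% against 49.4% in B73, again higher at low nitrate.

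In the nitrite reductase pair the sparse gene Zm00001d052164 made up 0.365% to 1.62% of the summed FPKM in zmnrl1-m at low nitrate and 1.0% to 1.24% at high nitrate. It made up 4.80% to 5.97% at low and 4.32% to 6.68% at high nitrate in ZmNRL1-OE, and 2.70% to 4.48% at low and 4.13% to 4.60% at high nitrate in B73. Its part was therefore lowest in zmnrl1-m, below every library of the other genotypes at either nitrate level, and Zm00001d018161 supplied at least 93.3% of the pair in every library.

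The ratio of summed FPKM, nitrite reductase pair over nitrate reductase pair, was lower at low nitrate. It was 0.290 ± 0.0294 at low nitrate against 0.614 ± 0.0374 at high nitrate in zmnrl1-m (SD, n = 3). The ratio was 0.528 ± 0.0395 against 0.965 ± 0.101 in ZmNRL1-OE, and 0.471 ± 0.0663 against 1.0 ± 0.122 in B73. Low- and high-nitrate libraries did not overlap in any genotype, and the zmnrl1-m libraries lay below those of B73 at both nitrate levels, while those of ZmNRL1-OE overlapped with B73. Behind the ratio, the summed nitrate reductase FPKM was 51.2 ± 8.32 against 241 ± 53.5 in zmnrl1-m, 141 ± 27.1 against 236 ± 45.3 in ZmNRL1-OE and 82.5 ± 14.8 against 218 ± 43.1 in B73, low against high nitrate. The summed nitrite reductase FPKM was 14.8 ± 2.26 against 147 ± 23.4 in zmnrl1-m, 75.1 ± 19.1 against 225 ± 21.4 in ZmNRL1-OE and 39.3 ± 10.8 against 216 ± 20.9 in B73.

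**Figure D5:**
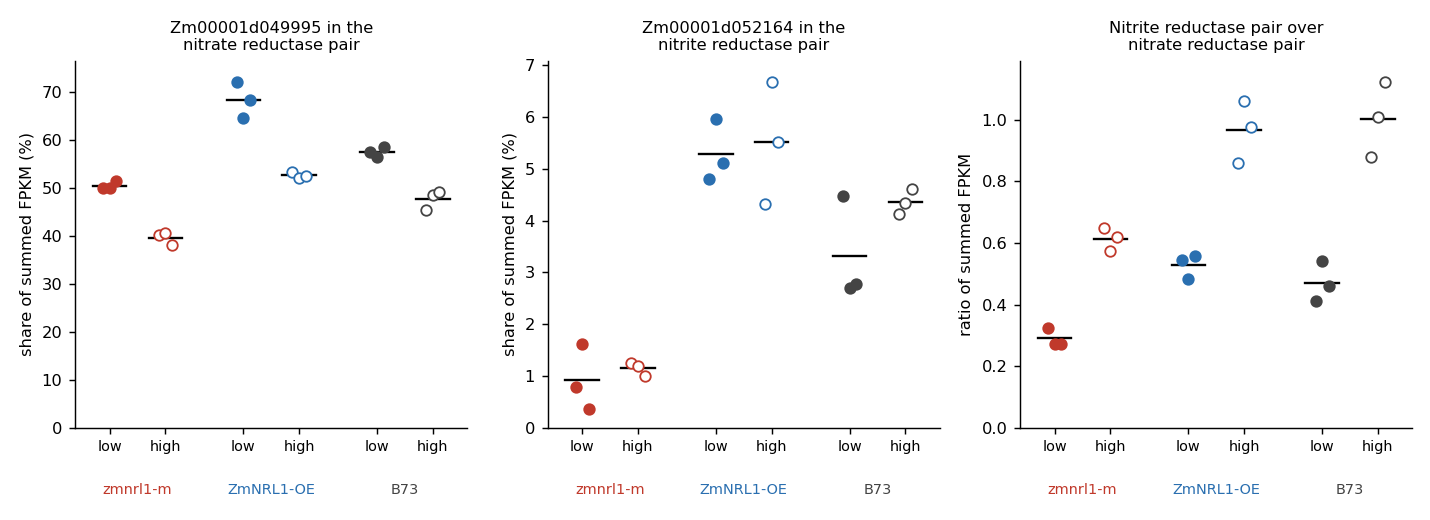
Part of Zm00001d049995 in the summed FPKM of the nitrate reductase pair, part of Zm00001d052164 in that of the nitrite reductase pair, and ratio of the nitrite reductase to the nitrate reductase sum, per library, with bars at the mean of 3 libraries, low nitrate filled and high nitrate open. The ratio lies between 0.273 and 0.558 in the low-nitrate libraries and between 0.575 and 1.12 in the high-nitrate libraries.

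Within groups, 3 of the genes moved together from library to library. Deviations of log2 CPM (counts relative to the library total, scaled by edgeR) from the group means correlated over the 18 libraries with r = 0.91 between the nitrate reductase genes, and Zm00001d018161 correlated with Zm00001d049995 with r = 0.88 and with Zm00001d018206 with r = 0.80 (Spearman's rho 0.91, 0.89 and 0.81). Zm00001d052164 correlated with the others with r between 0.39 and 0.44 (Spearman's rho 0.37 to 0.59). Its deviations in zmnrl1-m at low nitrate were 0.996 in replicate 2 and -1.05 in replicate 3, from 23 and 4 counts. The part of these low counts in its correlations was not tested. The points are libraries, and the genes of a library share its RNA, depth and scaling, so these values are descriptions. Such correlations were not computed for other genes, so whether they are particular to these genes was not tested. In B73 at low nitrate replicate 1 lay below its group mean, with deviations of -0.34 log2 units in Zm00001d049995, -0.34 in Zm00001d018206 and -0.54 in Zm00001d018161, and so did replicate 2 of ZmNRL1-OE at low nitrate, with -0.45, -0.20 and -0.50. These were the shallowest libraries of their groups, with 21974154 and 22962059 counts. The shallowest library of zmnrl1-m at high nitrate, replicate 3 with 21905877 counts, had deviations of -0.099, -0.0048 and -0.028 in these genes. In ZmNRL1-OE at high nitrate the shallowest, replicate 2, had -0.33, -0.30 and -0.19. In B73 at high nitrate it was replicate 2, with -0.12, -0.17 and -0.14. In zmnrl1-m at low nitrate it was replicate 1, with -0.080, -0.046 and 0.10. The part of depth in these deviations was not tested. Without the named B73 library the log2 fold change, low over high nitrate, in B73 was -0.99, -1.57 and -2.23 in the 3 genes, and without the named ZmNRL1-OE library that in ZmNRL1-OE was -0.19, -1.28 and -1.39, and in both cases the calls were as with all libraries, Zm00001d049995 not passing in ZmNRL1-OE (edgeR adjusted p = 0.556).

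The profiles most like those of the 4 genes were sought among the other tested genes, by the root mean square difference of log2 CPM over the 18 libraries after each gene was centred at its mean. Zm00001d026501 and Zm00001d036439 were nearest to Zm00001d049995, at 0.26 and 0.28, where the median gene stood at 0.89 and Zm00001d018206 at 0.54. Zm00001d008588 and Zm00001d017597 were nearest to Zm00001d018206, at 0.21 and 0.27, with the median gene at 1.05. Each member of the nitrate reductase pair had genes closer to it than the other member, but these nearest were picked from all other tested genes. How many genes were closer than the other member was not counted. Zm00001d032318 and Zm00001d015268 were nearest to Zm00001d018161, at 0.23 and 0.34 (median gene 1.46, Zm00001d018206 0.62, Zm00001d052164 1.1). Zm00001d021653 and Zm00001d023402 were nearest to Zm00001d052164, at 0.71 and 0.88 (median gene 2.18), which in log2 units was further than for the other members. The distances were not scaled by the spread of a profile. That spread (root mean square of the centred profile) was 2.15 for Zm00001d052164. It was 0.81 for Zm00001d049995, 0.99 for Zm00001d018206 and 1.42 for Zm00001d018161. Zm00001d032318, the nearest to the abundant nitrite reductase gene, had log2 fold changes, low over high nitrate, of -3.49 in zmnrl1-m, -1.90 in ZmNRL1-OE and -2.10 in B73, and Zm00001d008588 had -2.55, -1.68 and -1.85. These genes were chosen by their profiles, and the tables give no names for them.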

How the data were processed

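Root RNA was sequenced in 18 libraries, 3 for each of 6 groups, and groups were read from the sample titles. The deposited raw counts are whole reads per gene; the FPKM values were made by the authors from reads, gene length and library total, and in the 19280 genes whose counts exceeded 50 throughout, the length implied by the 2 deposited tables varied by at most 0.0393% (coefficient of variation). The submitters' processing notes name HISAT2 2.2.1, featureCounts 2.0.1, bcl2fastq 2.19.1, Trim Galore 1.18 and the build B73 RefGen_v4. How featureCounts handled strand and multiply matching reads is not given in the sources used here, so reads could be split or lost between near-identical copies, the members of each pair included. Reads of all lines were counted against the B73 build. The part of read mapping in differences between a line and B73 was not tested.

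Raw counts were tested with edgeR 4.0.16 (glmQLFit, glmQLFTest) in R 4.3.3, with TMM scaling (factors 0.956 to 1.07), filterByExpr at its minimum count of 10 and 1 mean per group over 18 libraries (12 residual degrees of freedom). The filter kept 27134 of 41632 genes, the 4 members among them, p-values were adjusted over all of these, and SE is the size of the log2 fold change over the square root of F. The fit was tested on simulated data. Alternatives were DESeq2 1.42.0, limma 3.58.1 on log2(FPKM + 1) and log2(FPKM + 0.1), other scalings and filters, a replicate block, fits of the compared groups alone, and each library left out in turn. Libraries of a group differed pairwise by a chi-square per degree of freedom of 7.80 to 25.6, so none was taken for a duplicate.

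Replicate numbers are shared across groups. Across genes, the deviations from group means of libraries with one number had r = 0.41, 0.12 and 0.26 between low and high nitrate in B73, above the limit of 0.1 for pairing, and in each other comparison of 2 groups at least 1 correlation was below it. The pairing in B73 comes from these correlations, not from the labels.

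The members, lists and tests were chosen with earlier results of these data known. The named genes are the 4 members in every comparison and, for each, the 2 other tested genes with the nearest profile. The list of other genes of nitrate assimilation, chosen by symbol, and the leaf marker genes were not tested, because the RefSeq table used (49888 genes, assembly Zm-B73-REFERENCE-NAM-5.0) holds 0 of the 41632 identifiers.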

Additional observations from a re-analysis of the deposited data

Results flagged for a closer look

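The nitrate response differed between ZmNRL1-OE and zmnrl1-m in each of the 4 genes, by the edgeR test of the difference itself. The log2 response in ZmNRL1-OE minus that in zmnrl1-m was 1.48 in Zm00001d049995, 1.12 in Zm00001d018206, 1.68 in Zm00001d018161 and 1.84 in Zm00001d052164. Of all tested genes, 6.75% had a called difference in that direction and 9.70% in the other. Leaving out single zmnrl1-m libraries could take the call from Zm00001d018206 (edgeR adjusted p = 0.0501 and 0.0517). On log2(FPKM + 1) the difference of Zm00001d052164 turned to -0.21 and was not called (limma adjusted p = 0.404).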

How the results depend on the processing

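For the 40 combinations of gene and comparison, 644 of 672 alternative values kept their direction and their side of the threshold, 12 newly passed it, 3 no longer passed it and 15 changed sign, 2 of which also changed side; the cause was not tested unless given here. All 12 low-against-high results kept direction and call. With the replicate block no call on the 4 genes changed. In B73 the blocked log2 fold changes were -1.13 in Zm00001d049995, -1.72 in Zm00001d018206, -2.45 in Zm00001d018161 and -2.95 in Zm00001d052164. DESeq2 newly called the response difference from B73 for Zm00001d018206 (-0.81) and Zm00001d018161 (-0.86) in zmnrl1-m and for Zm00001d052164 (1.28) in ZmNRL1-OE. On log2(FPKM + 1), whose pseudocount exceeds the zmnrl1-m level of Zm00001d052164 at low nitrate, the response difference of that gene turned to 0.99 for zmnrl1-m minus B73, which passed in the opposite direction (limma adjusted p = 0.00682), and to -0.21 for ZmNRL1-OE minus zmnrl1-m, which lost its call (0.404), and ZmNRL1-OE against B73 at high nitrate passed (0.35, limma adjusted p = 0.0476). The fall of Zm00001d052164 on that scale was -1.22 in zmnrl1-m and -2.22 in B73, and on log2(FPKM + 0.1) -2.94 in zmnrl1-m; its difference from B73 in zmnrl1-m at low nitrate was -0.97 on log2(FPKM + 1). Fitting only the groups compared called Zm00001d018161 in zmnrl1-m against B73 at high nitrate (-0.49). Zm00001d018161 in ZmNRL1-OE against B73 at high nitrate turned to 0.0027 with DESeq2 size factors, 0.046 with library totals alone, 0.012 with at least 1 CPM in 3 libraries, 0.0027 in DESeq2, and 0.046 on log2(FPKM + 1) and on log2(FPKM + 0.1), none called.

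With 1 library left out, where calls or signs changed, the ranges were as follows. Against B73 at low nitrate, Zm00001d018206 in zmnrl1-m ranged from -0.59 to -0.35. At high nitrate, zmnrl1-m against B73 ranged from -0.31 to 0.033 in Zm00001d049995 and from 0.18 to 0.56 in Zm00001d018206, and ZmNRL1-OE against B73 from -0.20 to 0.11 in Zm00001d018206 and from -0.073 to 0.092 in Zm00001d018161. The response difference of zmnrl1-m from B73 ranged from -0.99 to -0.62 in Zm00001d018206, called without B73 low-nitrate replicate 1, B73 high-nitrate replicate 1 or zmnrl1-m high-nitrate replicate 1, and from -1.08 to -0.67 in Zm00001d018161, called without B73 low-nitrate replicate 1. That of ZmNRL1-OE from zmnrl1-m ranged from 0.95 to 1.28 in Zm00001d018206.

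Over all tested genes, 2424 were called for the response difference of zmnrl1-m from B73, 1569 with the replicate block, 4150 by DESeq2 and 546 to 3314 with 1 library left out. For that of ZmNRL1-OE from B73 the counts were 13, 104 by DESeq2 and 4 to 22, and for that of ZmNRL1-OE from zmnrl1-m 4463 and 1685 to 5567. For the nitrate response, 1 library left out gave 2054 to 4361 calls in B73 (3998 with all), 2915 to 5075 in zmnrl1-m (4846) and 3251 to 7173 in ZmNRL1-OE (6498).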
